A study of Mus musculus with 16 samples.

Results

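The comparison described here is between untreated mouse brain microvascular endothelial cells (mBMEC) with and without induced loss of Ccm3, the protein encoded by Pdcd10. It sets against each other the 6 libraries without drug of the 16 of the study, 3 labelled CCM3WT (WT) and 3 labelled CCM3KO (KO). Libraries with the same replicate number were set against each other as 3 pairs. All cells were cultured from brains of adult mice aged 8 to 10 weeks that carried both alleles, Cdh5(PAC)-CreERT2 and Pdcd10 fl/fl, the controls included. Cre is driven by the Cdh5 promoter, which is active in endothelial cells. Only the KO cells had been given 4-hydroxytamoxifen (4-OHT), which activates Cre, and its own effects and those of losing Ccm3 cannot be told apart. For each culture 3 to 4 brains were pooled, and cells were selected with puromycin and used at passage 2. The other 10 libraries, from cells kept for 24 h in propranolol (10 µM) or rapamycin (100 nM), entered the same fit. They thus share in the estimate of spread behind every SE, p-value and call, and their direction is described as well. The WT libraries held 22.21, 26.2 and 23.82 M counts and the KO libraries 25.98, 26.01 and 22.37 M, in replicates 1, 2 and 3.

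Ccm3 is 1 of 3 proteins whose loss causes cerebral cavernous malformations, clusters of dilated and leaky capillaries in the brain. In endothelial cells the CCM proteins restrain the kinase MEKK3, which acts through ERK5 to raise the transcription factors KLF2 and KLF4. Ccm3 also binds the GCKIII kinases and is part of the STRIPAK phosphatase complex. KLF2 and KLF4 are otherwise known for their response to blood flow, and their targets include the nitric oxide synthase Nos3 and proteases of the ADAMTS family.

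The cells carried the markers of endothelium. All 18 endothelial markers examined were expressed, with a summed level of 14030 ± 1807 TPM (a level per transcript length) in WT and 13570 ± 1086 TPM in KO cells (SD, n = 3). Cldn5, a tight junction protein of brain endothelium, was the most abundant of them, with a mean of 2251 TPM over the 6 libraries. No endothelial marker was called between KO and WT, and their median log2 fold change was −0.05, or 0.09 without the library labelled WT replicate 1. Replicate numbers also carried the sex of the pooled mice. Xist, the RNA of the inactive X chromosome, had 118, 0 and 55.9 CPM (the count as a share of the library, scaled between libraries) in WT replicates 1, 2 and 3 and 122, 0.228 and 61.7 CPM in KO replicates 1, 2 and 3. Ddx3y, a gene of the Y chromosome, had 0, 82.4 and 46.2 CPM in WT and 0, 91.2 and 42.2 CPM in KO. Replicate 1 thus carried no Y-linked reads, replicate 2 almost no Xist and replicate 3 both, in WT and KO alike.

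Pdcd10 lies on the minus strand of GRCm39 at chr3:75423789-75464748. Its level was 11.5, 31.2 and 47.0 CPM in the libraries labelled WT replicates 1, 2 and 3, and 9.72, 11.0 and 9.73 CPM in the KO replicates. The library labelled WT replicate 1 lay close to the KO libraries, against its label, so the number of calls, the calls that are lost and several single values are also given without it. The pair differences (KO minus WT, log2 CPM) were −0.24, −1.50 and −2.26. The fitted log2 fold change was −1.52 (SE 0.41, adjusted p = 0.119, edgeR quasi-likelihood test with the replicate number as a block). Without the library labelled WT replicate 1 it was −2.02 (adjusted p = 0.0141), and with effective transcript lengths as an offset it was −0.82 (adjusted p = 0.377).

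The transcripts of Pdcd10 separated the groups in a further way. The main transcript, ENSMUST00000161137, has 8 exons, and the deposited counts gave it 88.8, 96.9 and 97.3% of all Pdcd10 counts in WT replicates 1, 2 and 3. In KO replicates 1, 2 and 3 its share was 74.7, 79.4 and 82.6%. A short transcript, ENSMUST00000159217, holds the first 3 exons and then 156 bases of the following intron. It had 8.39, 4.02 and 0 expected counts in WT and 18.4, 27.4 and 16.8 in KO. Over all libraries of the study it was listed at 0 in 5 of the 7 WT libraries, had at most 8.39 expected counts in any WT library, and had between 7.04 and 45.9 in the 9 KO libraries. The WT library with the highest share of this transcript, 3.36%, was the one labelled WT replicate 1. The end of the third exon follows in its spliced and unspliced form, with exonic bases in capitals and intronic bases in lower case (minus strand, intron start within chr3:75440833-75440862).
Spliced into exon 4: GCCGCTTTCATTAAGGCTGAAAAGGAAAAT
Running on into the intron: GCCGCTTTCATTAAGgtgaggtacattcac
The RT-qPCR primers that the study used for Ccm3 are shown for their position.
Forward: TCACCGAGTCCCTCCTTCG
Reverse: GCCCGTGCCTTTTCATTTAGG
The forward primer matched exon 4 (chr3:75436140-75436158) and the reverse primer exon 5 (chr3:75434964-75434984), and neither is in the short transcript. The short transcript rests on few counts, and Salmon shares reads between transcripts that overlap.

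**Figure D1:**
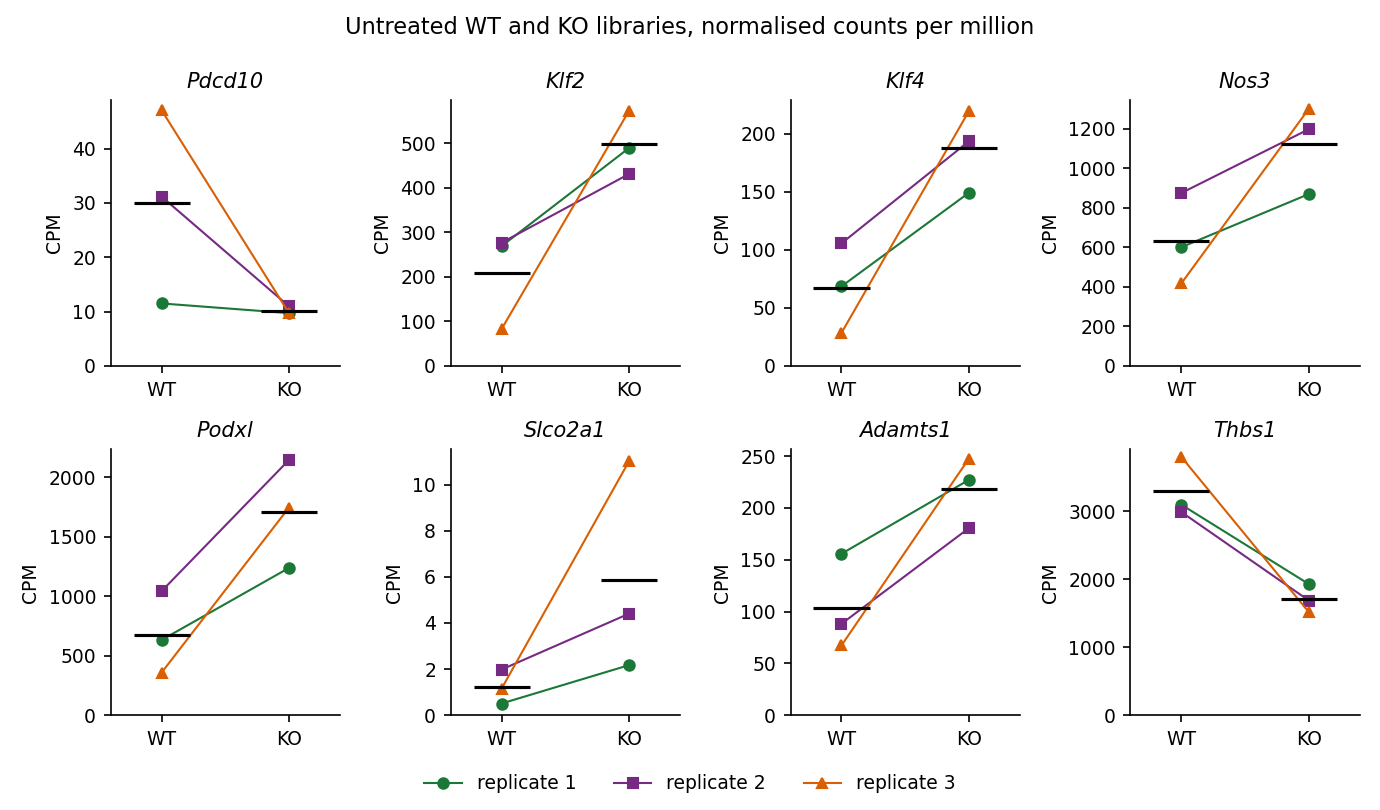
Level in each untreated library (CPM, y axis from 0) of Pdcd10, of Klf2 and Klf4 and of genes known as their targets, in WT and KO cells. Lines join libraries with the same replicate number and horizontal bars are group means (n = 3). Pdcd10 was 11.5 CPM in the library labelled WT replicate 1, near the 3 KO libraries at 9.72 to 11.0 CPM, and Klf2 and Klf4 were higher in KO in every pair.

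Over the 14838 genes tested, 27 were called between KO and WT (0.182% of those tested), 16 higher in KO (0.108%) and 11 lower (0.0741%). In edgeR with the replicate block, a gene was called at more than 1.5-fold and an adjusted p under 0.05. Without the block, edgeR called 1 gene, Id3. On the 6 untreated libraries alone with the block it also called 1 gene, Ankrd1, which is not among the 27, and Id3 and Edn1 had adjusted p-values of 0.0519 and 0.0823 there. With the block, DESeq2 called 396 genes, all 27 among them. Leaving out the library labelled WT replicate 1 gave 66 calls (0.445%), 41 higher (0.276%) and 25 lower (0.169%), and 21 of the 27 genes were called again. The 6 lost calls were Ptprr, Dusp3, Atp8a1, Ccdc141, Stard8 and Rundc3a, with adjusted p-values between 0.0527 and 0.0643. With effective lengths as an offset 20 genes were called, 10 in each direction, and 12 of the 27 were lost. The count depended on every other pair too, since no gene was called without replicate 2 or without replicate 3. Leaving out any other single untreated library gave at most 9 calls in edgeR. Single genes said below to pass without the library labelled WT replicate 1 thus come from the 1 exclusion that raised the count. Of the 27 genes, 21 had no overlap between the 3 WT and the 3 KO libraries, against 13.2% of all genes tested (6.68% higher and 6.5% lower), and 20 changed by more than 1.5-fold in each pair, against 3.27%. Both measures share the contrast that made the calls, so they describe the genes called and add no support.

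Among the called genes that fell, Id3 had the smallest p-value. Id3 encodes an inhibitor of basic helix-loop-helix transcription factors that is switched on by BMP signals. Its level was 96.7, 94.9 and 103.7 CPM in WT and 37.1, 28.1 and 27.5 CPM in KO, a log2 fold change of −1.69 (SE 0.15, adjusted p = 0.00267). All KO libraries lay far below all WT libraries, and the pair differences were −1.38, −1.75 and −1.91. Id3 shares 11.8% of its exonic bases with an antisense RNA, and the libraries carry no strand.

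Edn1 encodes endothelin 1, a strong constrictor of blood vessels made by endothelium. It had 542, 367 and 531 CPM in WT and 263, 134 and 133 CPM in KO (log2 fold change −1.50, SE 0.16, adjusted p = 0.00748). The highest KO library was replicate 1, still below the lowest WT library. Edn1 shares 22.5% of its exonic bases with an antisense RNA. Thbs1, the matrix glycoprotein thrombospondin 1 and an inhibitor of vessel growth, was the most abundant of the genes that fell per length, at 898 TPM in WT and 453 TPM in KO. In CPM it fell from 3293 ± 439 to 1710 ± 207 (SD, n = 3), a log2 fold change of −0.95 (SE 0.16, adjusted p = 0.0473). Thbs1 shares 11.1% of its exonic bases with another gene.

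Lamb1, a laminin chain of the basement membrane, had 408, 354 and 515 CPM in WT and 187, 211 and 160 CPM in KO (log2 fold change −1.21, adjusted p = 0.0473). All 3 KO libraries lay below all 3 WT libraries. Glipr2, a protein of the Golgi surface, fell from 53.9 ± 18.0 to 17.0 ± 2.56 CPM (log2 fold change −1.65, adjusted p = 0.0314). Arxes2, a gene of the X chromosome, fell from 15.5 ± 8.29 to 4.53 ± 3.09 CPM, and its log2 fold change of −1.82 was the lowest among the genes called. The remaining genes that fell were Ilvbl, Dpysl3, Sgk1 (a kinase induced by glucocorticoids), Chrnb1 (a subunit of the muscle acetylcholine receptor) and Foxc1 (a transcription factor of vessel development). Their log2 fold changes ran from −1.11 for Ilvbl to −0.61 for Foxc1, and in all 5 the KO libraries lay below the WT libraries. Sgk1 shares 14.4% of its exonic bases with another gene.

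Of the genes that rose, Xdh, xanthine dehydrogenase of purine breakdown, had 2.53, 1.35 and 2.99 CPM in WT and 7.21, 8.69 and 19.5 CPM in KO (log2 fold change 2.27, SE 0.32, adjusted p = 0.0314). Replicate 3 of KO was the highest and no library overlapped. Clic5, which links membranes to the actin cytoskeleton through ezrin, had 13.8, 18.7 and 7.01 CPM in WT and 32.7, 76.1 and 71.2 CPM in KO (log2 fold change 2.09, SE 0.34, adjusted p = 0.0472). Ptprr, a tyrosine phosphatase that acts on MAP kinases including ERK5, rose from 7.30 ± 5.91 to 24.8 ± 6.65 CPM (log2 fold change 1.94, adjusted p = 0.0447). Without the library labelled WT replicate 1 the adjusted p of Ptprr was 0.0561, and 14.8% of its exonic bases are shared with Taf7l2.

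Hlx, a homeobox transcription factor, had 130, 66.4 and 69.3 CPM in WT and 226, 125 and 158 CPM in KO (log2 fold change 0.96, SE 0.12, adjusted p = 0.0206). The groups overlapped because replicate 1 was high in both, while the 3 pair differences, 0.80, 0.91 and 1.19, were close. Dusp3, a phosphatase that acts on ERK kinases, rose from 306 ± 55.2 to 494 ± 70.4 CPM (log2 fold change 0.69, adjusted p = 0.0447), and without the library labelled WT replicate 1 its adjusted p was 0.0527. Hlx and Dusp3 share 17.1 and 13.3% of their exonic bases with other genes. Mylk, the kinase that activates myosin light chains, rose from 15.4 ± 2.99 to 24.7 ± 3.43 CPM (log2 fold change 0.69, adjusted p = 0.0314). The other genes that rose were Ccdc141, Gatm (creatine synthesis), Aatk, Synm (an intermediate filament protein), Wdr62, St6galnac4 (a sialyltransferase), Atp8a1 (a phospholipid flippase), Rundc3a and Stard8. Their log2 fold changes ran from 0.62 for Stard8 to 1.38 for Ccdc141, and Rundc3a shares 20.1% of its exonic bases with Slc25a39. Kif14, a kinesin of cell division, passed the call on 0, 1 and 0 counts in WT and 0, 199 and 87 counts in KO. It was thus at 0 in both libraries of pair 1, and its fitted value of 7.68 depends on the prior count and is no measure of size.

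**Figure D2:**
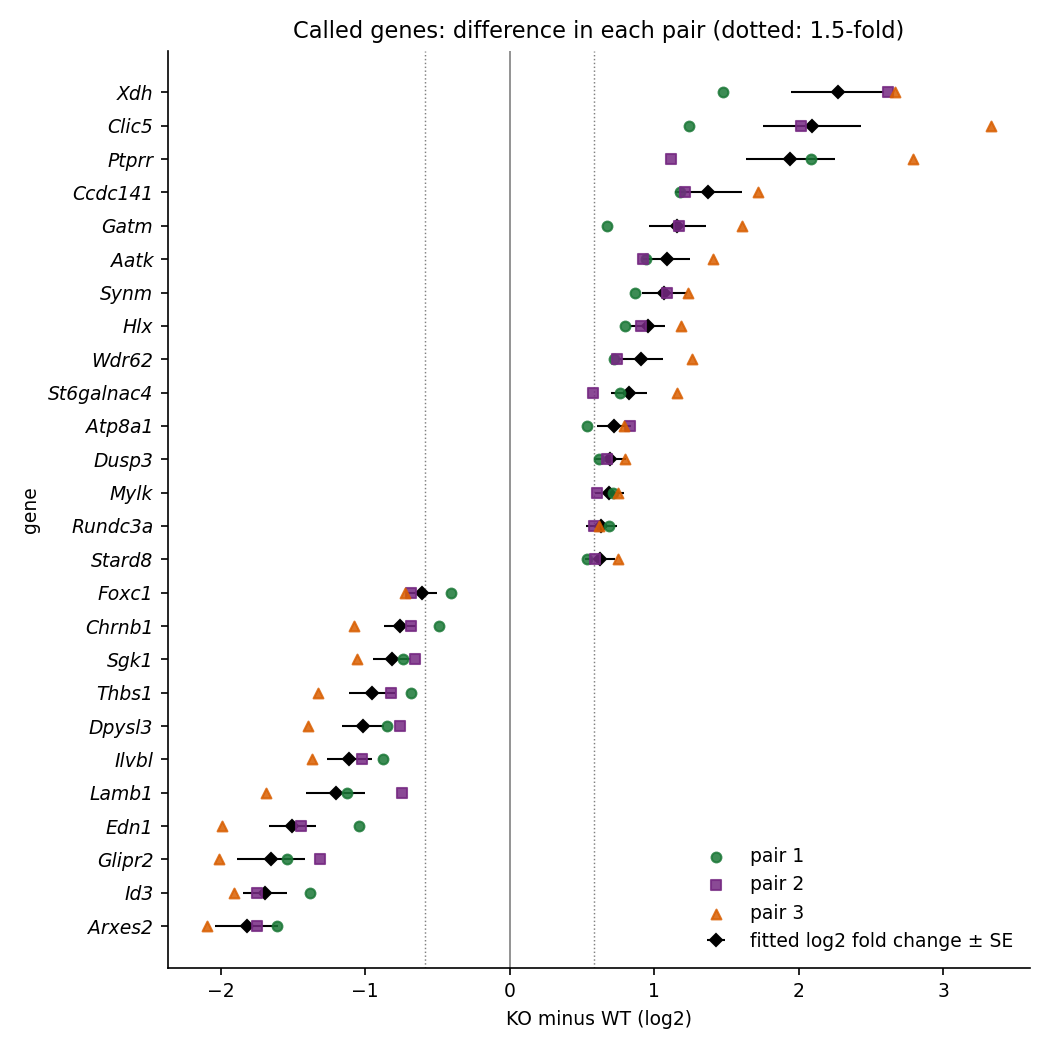
Difference between KO and WT (log2, x axis) for 26 of the 27 called genes, without Kif14, in each of the 3 pairs (coloured points, log2 CPM) and in the fit (black diamonds with standard errors). Dotted lines mark 1.5-fold. All pair differences of a gene lie on one side of 0, and pair 3 is often the farthest out, with a median size of 1.35 against 0.82 in pair 1 and 0.87 in pair 2.

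The size of the differences was not even over the pairs. Over the 26 called genes without Kif14, the median size of the difference was 0.82, 0.87 and 1.35 on the log2 scale in pairs 1, 2 and 3. Across all 14838 genes, which are not independent replicates, the pair differences correlated at 0.20 between pairs 1 and 2, 0.39 between pairs 1 and 3 and 0.29 between pairs 2 and 3. When the genes were called without pair 1, 11 passed (0.0745%), and 10 of them had the same direction in pair 1, against 66.5% of all genes tested. The 11 genes were Id3, Edn1, Clic5, Xdh, Hlx, Kif14, Pdcd10, Spata25, Lama5, Ptprd and Sh3tc2. Kif14, the exception, had no counts in pair 1. Edn1 differed by −1.04, Clic5 by 1.24 and Xdh by 1.48 in pair 1, whose untreated libraries had been left out. The drug-treated libraries of replicate 1 stayed in that fit and its estimate of spread, so pair 1 is no independent check. No gene was called without pair 2 or without pair 3 in edgeR, which gave an unadjusted p under 0.05 to 1737 and 862 genes, and 61.5 and 67.2% of all genes had the direction of the fit in the pair left out.

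The bases before the start of the canonical transcript are shown for 3 genes that fell and 1 that rose, to set the motif of KLF factors beside their direction (GRCm39, plus strand, Edn1 at chr13:42454492-42454741, Glipr2 at chr4:43957151-43957400, Id3 at chr4:135870558-135870807 and Clic5 at chr17:44445409-44445658). Capitals mark CACCC or, on the opposite strand, GGGTG.
Edn1: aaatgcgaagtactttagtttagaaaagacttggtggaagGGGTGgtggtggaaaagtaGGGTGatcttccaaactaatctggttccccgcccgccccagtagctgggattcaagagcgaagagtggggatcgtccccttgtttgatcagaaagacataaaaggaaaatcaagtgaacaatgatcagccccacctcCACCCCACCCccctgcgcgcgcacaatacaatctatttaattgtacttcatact
Glipr2: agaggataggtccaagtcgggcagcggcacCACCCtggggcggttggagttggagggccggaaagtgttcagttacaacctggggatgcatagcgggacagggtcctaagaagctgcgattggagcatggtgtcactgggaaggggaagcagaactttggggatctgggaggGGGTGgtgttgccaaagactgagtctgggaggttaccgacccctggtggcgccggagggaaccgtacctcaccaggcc
Id3: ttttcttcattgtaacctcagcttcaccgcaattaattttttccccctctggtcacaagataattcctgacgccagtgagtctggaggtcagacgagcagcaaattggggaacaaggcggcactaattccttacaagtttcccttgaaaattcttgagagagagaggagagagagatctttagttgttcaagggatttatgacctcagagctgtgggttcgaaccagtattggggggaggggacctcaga
Clic5: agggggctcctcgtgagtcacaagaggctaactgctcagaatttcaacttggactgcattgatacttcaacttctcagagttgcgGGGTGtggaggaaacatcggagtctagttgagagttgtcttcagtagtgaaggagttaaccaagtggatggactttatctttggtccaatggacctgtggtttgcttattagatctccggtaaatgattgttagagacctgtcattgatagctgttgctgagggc
Edn1 held 4 matches, Glipr2 2, Clic5 1 and Id3 none in these 250 bases. CACCC stood on either strand in 10 of the 11 genes that fell and in 10 of the 16 that rose, while 55.8% of all tested genes held it. It stood in 13 of the 22 KLF genes and targets examined (59.1%), in 63.2% of the genes that were higher by more than 1.5-fold in all 3 pairs and in 65.3% of those that were lower. Its share was higher in the lists of glycolysis (84.2%) and the hypoxia response (70%) than in the KLF list. The SMAD letters GGCGCC were in 9 of 25 BMP genes (36%) and in 12.5% of all tested genes, the TEAD letters CATTCC in 7 of 24 YAP and TEAD targets (29.2%, all genes 11.6%), and the HIF letters ACGTG in 11 of 20 hypoxia genes (55%, all genes 20.5%). TGACNNNGC, the letters of NRF2, were in 3 of 17 NRF2 targets (17.6%, all genes 10.7%) and in 22.7% of the KLF list. A match describes the letters of a window of 250 bases and shows no binding.

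Klf2 and Klf4 themselves were higher in KO in every pair, and neither passed the test. Klf4 had 68.5, 106 and 28.5 CPM in WT and 149, 193 and 219 CPM in KO (log2 fold change 1.52, SE 0.38, adjusted p = 0.104). Klf2 had 269, 277 and 82.8 CPM in WT and 489, 431 and 572 CPM in KO (log2 fold change 1.28, SE 0.42, adjusted p = 0.203). WT replicate 3 was the lowest library for both, and the groups did not overlap. In DESeq2 with the block the adjusted p was 0.00237 for Klf4 and 0.0305 for Klf2.

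Of the 22 genes in the list of KLF2, KLF4 and their known targets, 14 were higher in KO in all 3 pairs and 4 lower, against 21.4 and 22.2% of all genes tested (43.5% with 1 direction in all pairs). The list's median log2 fold change was 0.73, against −0.005 over all genes, and 0.98 without the library labelled WT replicate 1. Within pairs 1, 2 and 3 the medians were 0.54, 0.55 and 1.30. The members that edgeR called with all libraries were 2 that fell, Edn1 and Thbs1. The paper names Thbs1 among the genes dependent on KLF2/4 and describes it as downregulated where a CCM gene is lost. The list was not split by whether KLF2 and KLF4 raise or lower a member, so its counts and median pool both kinds. DESeq2 with the block also gave members that were higher in KO an adjusted p under 0.05, Slco2a1 (5.3e-05), Podxl (0.000207) and Nostrin (0.000565) among them. Without the library labelled WT replicate 1, Nostrin and Podxl were also called, both higher in KO (adjusted p = 0.0404 and 0.0495). The largest positive value was that of Slco2a1, a prostaglandin transporter, with 0.506, 1.98 and 1.15 CPM in WT and 2.17, 4.40 and 11.0 CPM in KO (log2 fold change 2.08, adjusted p = 0.0536). Podxl, a sialomucin of the lumenal surface, had 632, 1042 and 358 CPM in WT and 1237, 2144 and 1744 CPM in KO (log2 fold change 1.35, adjusted p = 0.0682). Nos3 had 600, 875 and 418 CPM in WT and 869, 1197 and 1300 CPM in KO (log2 fold change 0.82, adjusted p = 0.269), and WT replicate 2 overlapped KO replicate 1. Nos3 shares 32.7% of its exonic bases with another gene. Adamts1, which cleaves versican, had 156, 88.2 and 67.3 CPM in WT and 227, 181 and 248 CPM in KO (log2 fold change 1.07, adjusted p = 0.198). Nostrin, which binds Nos3 at the membrane, had a log2 fold change of 2.01 (adjusted p = 0.0682) but shares 48.8% of its exonic bases with Spc25.

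Upstream of these factors, the list of the CCM complex and MEKK3-ERK5 signalling held 19 tested genes, of which 8 were higher in all 3 pairs and 5 lower. None was called in edgeR with all libraries. Pdcd10, a member, passed in DESeq2 with the block (adjusted p = 0.00629) and in edgeR without the library labelled WT replicate 1. Krit1 and Ccm2, the other CCM proteins, had log2 fold changes of −0.17 and 0.10. Map3k3, which encodes MEKK3, had −0.05, and Mapk7, which encodes ERK5, −0.21. Ccm2l, a paralogue of Ccm2, had the largest positive value, with 67.8, 74.4 and 35.1 CPM in WT and 109, 115 and 136 CPM in KO (log2 fold change 0.99, adjusted p = 0.262).

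BMP signalling and ID genes leaned the other way. Of 25 tested, 12 were lower in KO in all 3 pairs, 2 were higher, and Id3 was the member called, with a median log2 fold change of −0.19. BMP ligands bind paired receptors on endothelium, which phosphorylate SMAD proteins that switch on the ID genes. Among the ligands, Bmp2 had 201, 110 and 278 CPM in WT and 91.6, 57.4 and 55.8 CPM in KO (log2 fold change −1.56, SE 0.39, adjusted p = 0.101), with no overlap, and Bmp6 had a log2 fold change of −0.88 (adjusted p = 0.16). Of the targets, Atoh8 had 21.8, 1.91 and 10.5 CPM in WT and 3.56, 0.759 and 2.80 CPM in KO (log2 fold change −2.10, adjusted p = 0.102), lower in each pair although WT replicate 2 was already low. The decoy receptor Bambi had −1.34 (adjusted p = 0.213). Nog, which encodes the BMP inhibitor noggin, was higher in each pair (log2 fold change 1.95, adjusted p = 0.305), on 1, 5 and 3 counts in WT and 4, 21 and 12 in KO. Id1 did not follow Id3, with a log2 fold change of 0.26 (adjusted p = 0.72). The receptors Bmpr2 and Acvrl1 had values of 0.09 and 0.28, and Eng 0.06.

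Endothelin and its receptor stood on opposite sides. Ednrb, the endothelin receptor type B of endothelium, had 6.26, 1.79 and 2.79 CPM in WT and 21.9, 8.01 and 19.9 CPM in KO (log2 fold change 2.23, SE 0.45, adjusted p = 0.0679). Every KO library lay above every WT library, while Edn1 fell as described. Of the 21 tested genes for vasoactive peptides and their receptors, 9 were higher in all 3 pairs, 5 were lower and Edn1 was the member called. Adora2a, an adenosine receptor that raises cyclic AMP, had 21.9, 13.2 and 20.0 CPM in WT and 8.6, 5.24 and 6.13 CPM in KO (log2 fold change −1.45, adjusted p = 0.0682). Adm, the dilator adrenomedullin, had −1.15 (adjusted p = 0.1), and Ramp2, which makes the adrenomedullin receptor with Calcrl, had 315, 312 and 110 CPM in WT and 650, 574 and 710 CPM in KO (log2 fold change 1.38, adjusted p = 0.182). Calcrl itself had 0.16. Adm and Ramp2 share 31.9 and 28.6% of their exonic bases with other genes.

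**Figure D3:**
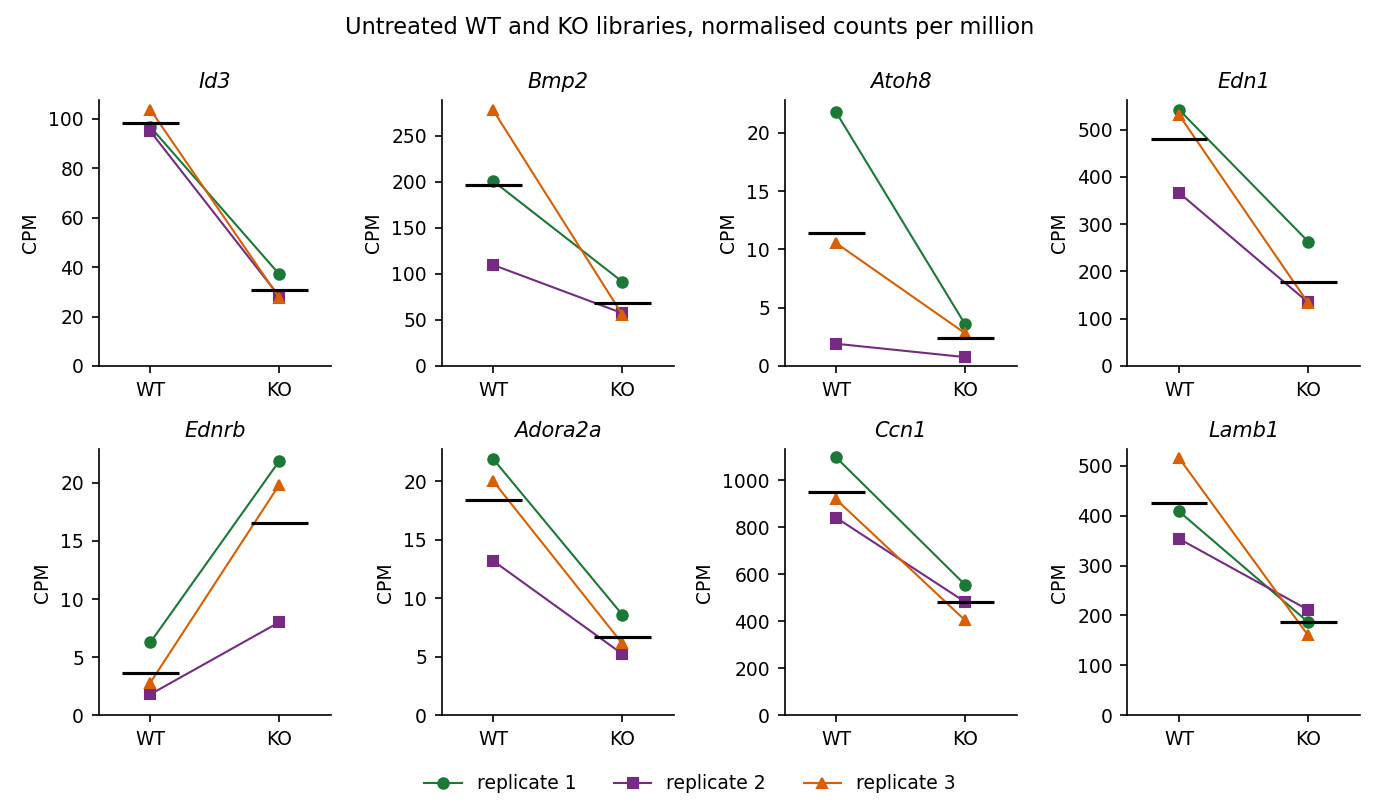
Level in each untreated library (CPM, y axis from 0) of genes of BMP signalling (Id3, Bmp2, Atoh8), of endothelin and adenosine signalling (Edn1, Ednrb, Adora2a), of a YAP target (Ccn1) and of a laminin chain (Lamb1). Lines join libraries with the same replicate number and horizontal bars are group means (n = 3). Id3 was 94.9 to 103.7 CPM in WT and 27.5 to 37.1 CPM in KO, and Ednrb is the gene of the 8 that was higher in KO.

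Of the lists examined, glycolysis had the highest share of genes with 1 direction. Of 19 tested genes, 16 were lower in KO in all 3 pairs, 1 was higher and none was called. The median log2 fold change was −0.49, and the medians within pairs 1, 2 and 3 were −0.49, −0.26 and −0.68. Pfkfb3, which makes the activator of phosphofructokinase and sets the glycolytic rate of endothelium, had 123, 73.3 and 142 CPM in WT and 54.7, 47.9 and 36.2 CPM in KO (log2 fold change −1.28, SE 0.24, adjusted p = 0.0587). Its KO libraries all lay below the WT libraries. Pfkl had −0.84, Tpi1 −0.76, Eno1 −0.71, Pgk1 −0.66 and Ldha −0.59, with adjusted p-values between 0.0697 and 0.219. Pfkl and Tpi1 share 39.8 and 25.5% of their exonic bases with other genes. Gapdh, often used as a reference gene, had a log2 fold change of −0.38 (adjusted p = 0.16) and was lower in each pair. Slc2a1, the glucose transporter of the blood-brain barrier, had 0.09, and Eno2 0.88. Without the library labelled WT replicate 1 the median of the list was −0.35.

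Genes of the hypoxia response overlap with glycolysis in their control by HIF factors. Of 20 tested, 10 were lower in all 3 pairs, 3 higher and none called in edgeR. Egln3, a prolyl hydroxylase that marks HIF for breakdown, had 131, 57.1 and 82.9 CPM in WT and 46.5, 35.1 and 16.9 CPM in KO (log2 fold change −1.53, adjusted p = 0.109). Vegfa had −0.84 and Bnip3 −0.92. In DESeq2 with the block the adjusted p was 0.00374 for Egln3 and 0.0032 for Adm, also of this list. There it was 0.211 for Vegfa and 0.0697 for Bnip3. The factors Hif1a and Epas1 had 0.27 and 0.47 and were higher in all pairs.

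**Figure D4:**
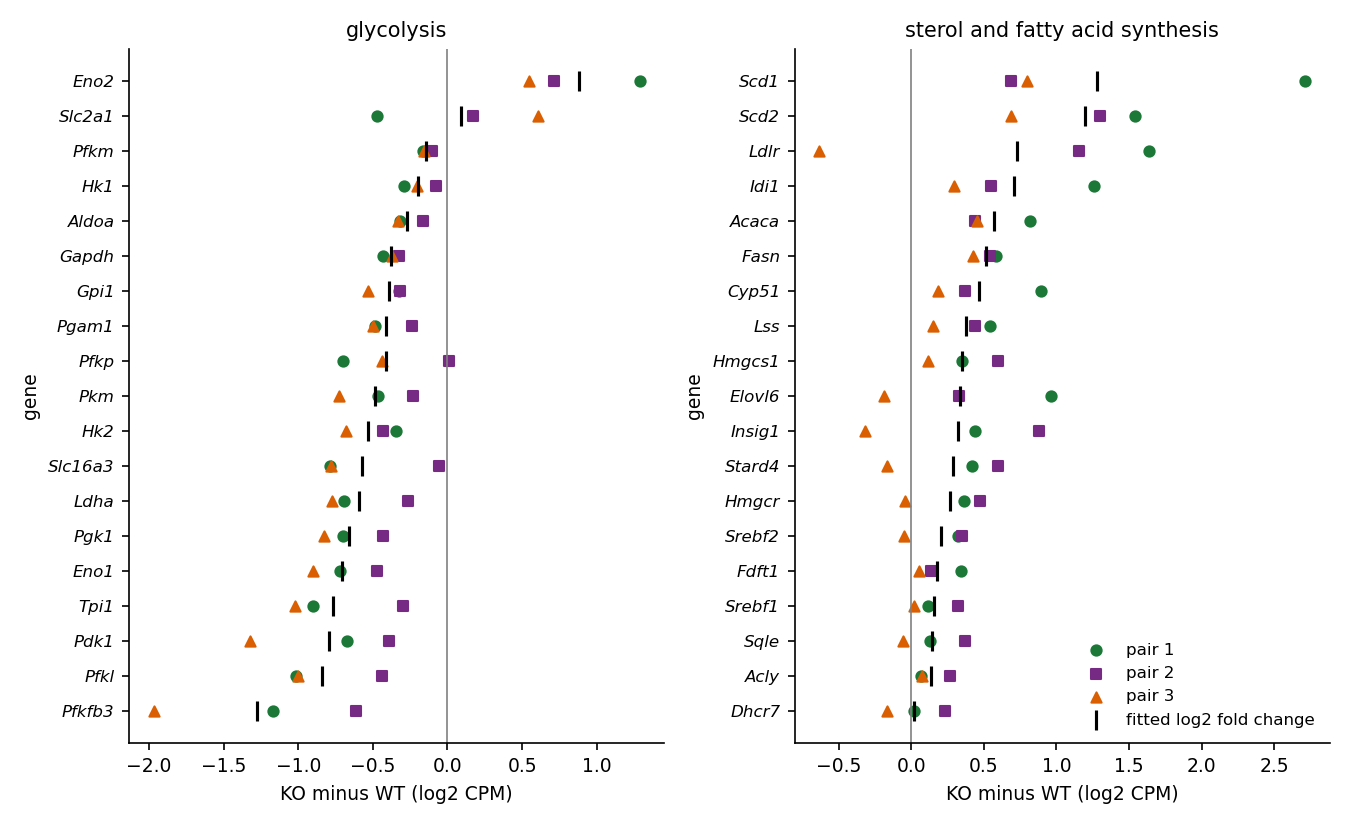
Difference between KO and WT (log2 CPM, x axis) in each of the 3 pairs for the 19 tested genes of glycolysis (left) and for 19 of the 20 tested genes of sterol and fatty acid synthesis (right), with the fitted log2 fold change as a black bar. In glycolysis 16 genes have all 3 points below 0, and in sterol and fatty acid synthesis 11 of the genes shown have all 3 above 0 and none has all below.

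Lipid synthesis had the opposite direction. In the list of sterol and fatty acid synthesis, 12 of 20 tested genes were higher in KO in all 3 pairs, none was lower in all and none was called, with a median log2 fold change of 0.34. The differences were larger in pairs 1 and 2, with medians of 0.49 and 0.46, than in pair 3, with 0.06. Scd2, a desaturase of fatty acids, had 129, 182 and 167 CPM in WT and 374, 448 and 269 CPM in KO (log2 fold change 1.2, SE 0.29, adjusted p = 0.1). The groups did not overlap. Fasn, fatty acid synthase, had an adjusted p under 0.05, but its log2 fold change of 0.52 was below the 1.5-fold limit.

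Among LXR targets and lipid carriers, 7 of 12 were higher in all 3 pairs and 2 lower. Apod, a lipocalin that carries lipids, had 174, 409 and 108 CPM in WT and 742, 1016 and 1121 CPM in KO (log2 fold change 2.08, adjusted p = 0.0947). Pltp, which moves phospholipids between lipoproteins, had 904, 1061 and 296 CPM in WT and 2521, 2026 and 2997 CPM in KO (log2 fold change 1.76, adjusted p = 0.101). Both were well apart between the groups. Apod shares 26.4% of its exonic bases with another gene. Pltp shares 21.2% of its exonic bases with Ctsa, and of its 10 tested neighbours on chromosome 2, itself included, 6 were higher in all 3 pairs. Neurl2, which shares 45.9% of its exonic bases with Ctsa, had 1.79 (adjusted p = 0.0536), Spata25 2.54 (adjusted p = 0.0505, and 0.0158 without the library labelled WT replicate 1) and Zswim1 1.02, while Ctsa had −0.71. Reads of overlapping neighbours cannot be told apart without strand, so these values are uncertain.

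NRF2 targets, which protect against oxidants, were higher in all 3 pairs for 10 of 17 genes and lower for none. Nqo1, a quinone reductase, had 28.0, 33.2 and 32.4 CPM in WT and 72.5, 61.9 and 205 CPM in KO (log2 fold change 1.61, SE 0.35, adjusted p = 0.0738), with KO replicate 3 far above the others. Hmox1 had −0.34. Among immediate early genes Nr4a1, an orphan nuclear receptor, had 37.0, 18.8 and 8.00 CPM in WT and 86.3, 47.7 and 69.4 CPM in KO (log2 fold change 1.75, adjusted p = 0.0682), and Sgk1 was the member called. Of 17 genes, 7 were higher in all 3 pairs and 2 lower. The heat shock list had 5 of 11 higher and 1 lower, and Hsph1 had 0.80 (adjusted p = 0.0657, and 0.0479 without the library labelled WT replicate 1).

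The matrix and the genes under YAP leaned towards lower levels in KO. In the basement membrane list 11 of 30 tested genes were lower in all 3 pairs and 5 higher, and Lamb1 and Thbs1 were called. Lama4, a laminin chain of endothelium, had −0.57 and Lama5 0.79, with adjusted p-values of 0.0947 and 0.104, and Lama5 was called without the library labelled WT replicate 1 (adjusted p = 0.0173). Col4a1 and Col4a2, the collagen chains of the basement membrane, both had 0.07. Thbs2, the paralogue of Thbs1, had 0.552, 4.18 and 4.14 CPM in WT and 2.98, 9.72 and 11.2 CPM in KO (log2 fold change 1.74, adjusted p = 0.101), higher in each pair. Ptx3, a soluble pattern receptor of the matrix, had −1.82 (adjusted p = 0.117). In the list of matrix proteases 9 of 18 were higher in all 3 pairs and 6 lower. Mmp15 had 1.13 and Mmp25 −1.10.

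Of the 24 targets of YAP and TEAD, which respond to stretch and matrix stiffness, 10 were lower in all 3 pairs and 4 higher. Ccn1, a secreted matrix protein, had 1098, 841 and 919 CPM in WT and 555, 482 and 404 CPM in KO (log2 fold change −0.99, SE 0.19, adjusted p = 0.0587). The groups were well separated, and Ccn1 passed without the library labelled WT replicate 1 (adjusted p = 0.0479). Ccn2 had −0.86 (adjusted p = 0.101) and Ankrd1 −1.30 (adjusted p = 0.199). Ankrd1 was the gene called on the untreated libraries alone (adjusted p = 0.0342). Ccn1, Ccn2 and Ankrd1 share 23, 36.5 and 24.3% of their exonic bases with other genes. In the list of RhoA and myosin contractility 9 of 21 were lower in all 3 pairs and 7 higher. Myl9, a myosin light chain, had 12.7, 54.6 and 14.7 CPM in WT and 7.59, 12.8 and 7.06 CPM in KO (log2 fold change −1.42, adjusted p = 0.146), and WT replicate 2 was far above the others. Fblim1 had −0.91 and Arhgef15 0.92. Of the mesenchymal transition genes 8 of 21 were lower in all pairs and 3 higher, with Tagln at −1.21 and Acta2 at −1.20, both highest in WT replicate 2, and Tagln shares 66.7% of its exonic bases with another gene.

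Barrier genes also had more members lower than higher in KO, with shares near those of the basement membrane list, and neither lean was tested. The median log2 fold change was −0.13, and −0.02 within pair 2. At an unadjusted p under 0.05 in edgeR, 3 members were higher and 2 lower. Of 24 tested, 9 were lower in all 3 pairs, 4 higher and none called in edgeR. In DESeq2 with the block the adjusted p was 3.5e-05 for Jam2, which was higher, and 0.00237 for Cldn1, which was lower. Cldn5 had 0.46 and Ocln 0.02, while Cldn1, a minor claudin here, had 28.4, 36.1 and 44.9 CPM in WT and 12.5, 26.3 and 8.22 CPM in KO (log2 fold change −1.43, adjusted p = 0.0988). Jam2, a junctional adhesion molecule, had 7.22, 4.82 and 4.80 CPM in WT and 15.8, 13.7 and 18.2 CPM in KO (log2 fold change 1.48, SE 0.26, adjusted p = 0.052). It passed without the library labelled WT replicate 1 (adjusted p = 0.0207). Plvap, a protein of fenestrated vessels, had 38.1, 205 and 27.1 CPM in WT and 125, 210 and 212 CPM in KO, so that pair 2 differed by 0.03 only, and it shares 21.7% of its exonic bases with Gtpbp3. The Wnt list had 7 of 24 higher in all 3 pairs and 7 lower. Nkd2 and Nkd1, feedback inhibitors of Wnt signalling, had 1.58 and 1.55 (adjusted p = 0.0608 and 0.113), while Lef1 had −0.87 and Axin2 −0.43. The ligand Wnt9b had the highest value of the list, 2.63 (adjusted p = 0.0945), on 5, 7 and 6 counts in WT and 9, 48 and 82 in KO. Wnt9b and Nkd1 were called without the library labelled WT replicate 1 (adjusted p = 0.0479 for both). The Notch and arteriovenous list had 6 of 21 in each direction, with Jag2 at 0.99 and Unc5b at −0.79 (adjusted p = 0.0619). In the list of VEGF and angiopoietin signalling 8 of 20 were lower in all pairs and 3 higher. Kdr, the main VEGF receptor, had 0.26 (adjusted p = 0.865). Egfr, a growth factor receptor at a mean of 1.15 TPM in WT and 0.463 TPM in KO, had −0.91 (adjusted p = 0.182).

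Interferon response and antigen presentation genes were higher in all 3 pairs for 14 of 29 tested and lower for 4, with a median of 0.16, or 0.09 without the library labelled WT replicate 1. Gbp4, an interferon-induced GTPase, had 6.07, 10.1 and 5.41 CPM in WT and 15.5, 16.2 and 30.3 CPM in KO (log2 fold change 1.35, adjusted p = 0.267), and H2-T23 had 0.95. Leukocyte adhesion genes and chemokines had 6 of 17 lower and 4 higher, with Vcam1 at −0.70. The largest difference of that list was in Ltb, a lymphotoxin chain, with 2.71, 8.33 and 3.49 CPM in WT and 0.891, 0.38 and 0.222 CPM in KO (log2 fold change −3.37, adjusted p = 0.166). The groups did not overlap, and Ltb shares 22.9% of its exonic bases with another gene. Genes of replication and mitosis had the highest median of the lists, 0.89, and 12 of 23 were higher in all 3 pairs. None was called and none passed 1.5-fold in all pairs. The list's medians were 1.04, 0.004 and 1.68 in pairs 1, 2 and 3. Top2a, a topoisomerase of dividing cells, had 7.04, 66.8 and 14.7 CPM in WT and 26.6, 74.4 and 47.1 CPM in KO, so that replicate 2 was highest in both groups. Of the sex-linked list, the X-linked Rtl8a, Rtl8b and Rtl8c, which are near-identical copies and share reads, had 1.58, 1.16 and 1.19, and the Y-linked genes lay between 0.01 and 0.09. In the list of oestrogen receptor genes and their targets, examined because 4-OHT binds these receptors, 1 of 9 was higher in all 3 pairs, 2 were lower and none was called in edgeR. The higher gene was Cyp1a1 (log2 fold change 1.21), with an adjusted p of 0.135 in edgeR and 0.0347 in DESeq2 with the block. Its groups overlapped, with 2.49, 0.262 and 2.58 CPM in WT and 4.22, 0.721 and 8.35 CPM in KO. An effect of 4-OHT was not tested.

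**Figure D5:**
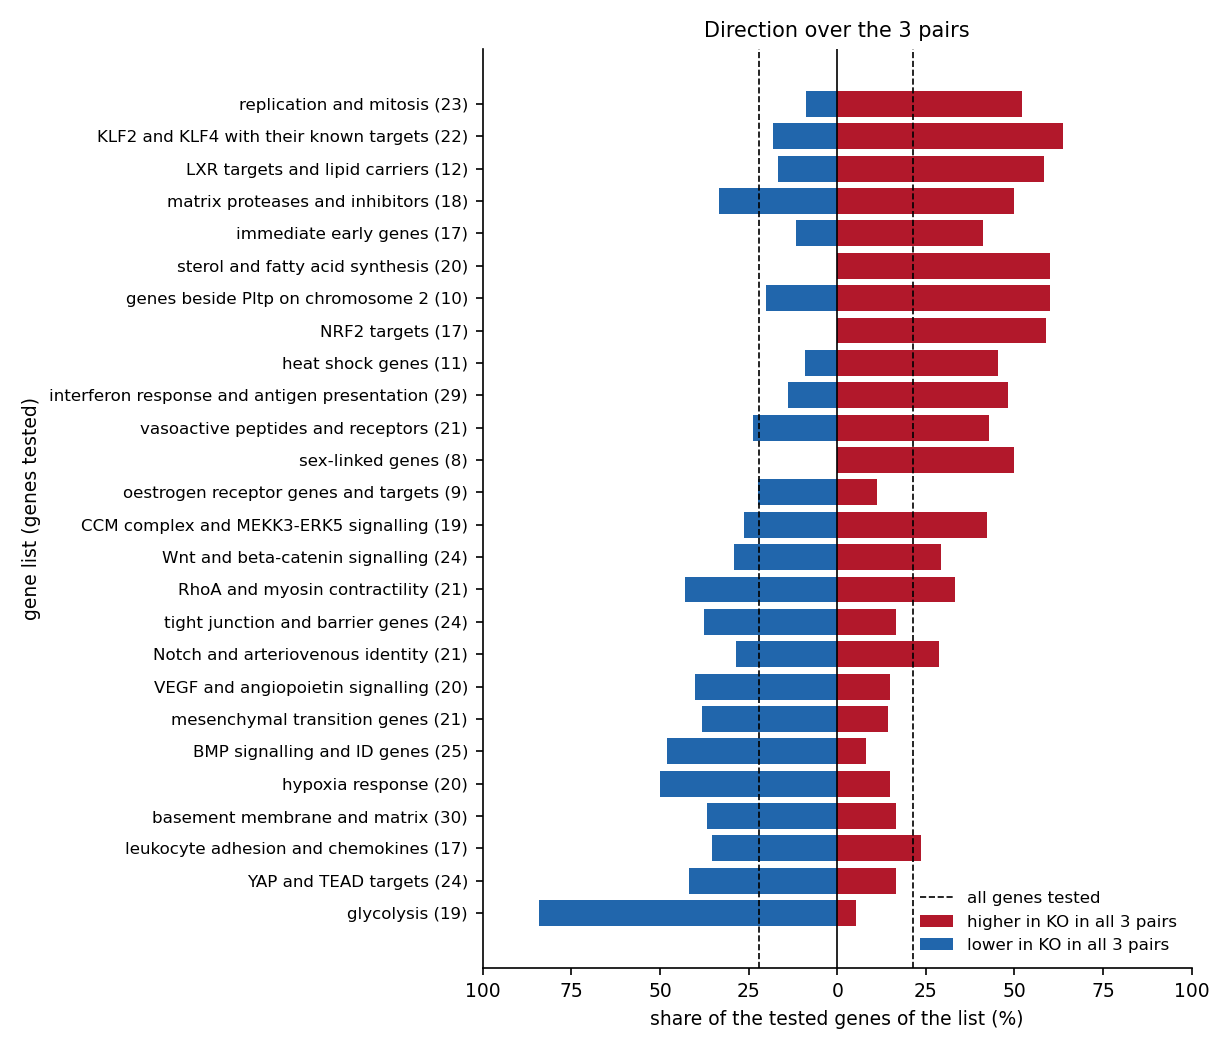
Share of the tested genes of each list (x axis, %) that were higher in KO (right, red) or lower in KO (left, blue) in all 3 pairs, with lists ordered by their median log2 fold change and the number of tested genes in brackets. Dashed lines give the shares over all 14838 genes, 21.4% higher and 22.2% lower. Glycolysis reaches 84.2% lower and the KLF list 63.6% higher.

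Over all genes tested, list members and called genes included, 485 differed by more than 1.5-fold in the same direction in all 3 pairs (3.27% of those tested), 269 higher (1.81%) and 216 lower (1.46%) in KO. This is a description with no test, and the 20 of them with an adjusted p under 0.05 are all among the 27 called. Of those with a mean of at least 1 CPM that have not been named, among the lowest were Cryz, Kirrel3, Prdm8, Gkn1, Kcnip3, Gm48111, Megf6, 1110032F04Rik and Lpar1, with log2 fold changes between −3.51 and −1.70. Without the library labelled WT replicate 1, the value of 1110032F04Rik was −0.89. Kirrel3, an adhesion molecule, had 6.67, 14.9 and 13.0 CPM in WT and 1.59, 2.77 and 2.27 CPM in KO. It was clearly apart between the groups, whereas Cryz rested on WT replicate 2, with 18.2 CPM against at most 2.17 elsewhere. The highest were Gsta1, Sox11, Atp2a3, Rtp3, Tnxb, Pcp4l1, Ctsw, Gem, Snhg11 and Sybu, between 1.93 and 2.98. Pcp4l1 had 5.89, 4.52 and 3.36 CPM in WT and 17.0, 18.3 and 23.2 CPM in KO (log2 fold change 2.04, adjusted p = 0.0536), and passed without the library labelled WT replicate 1 (adjusted p = 0.0481). Gem, a small GTPase that limits calcium channels, had 4.28, 21.7 and 2.75 CPM in WT and 12.5, 54.8 and 36.1 CPM in KO.

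The same genotypes were also compared in cells treated with a drug, in 2 pairs with propranolol and 2 with rapamycin. These pairs use other libraries, but from replicate numbers 1 and 2 under both drugs, which also gave untreated pairs. They also share in the spread behind the calls. Agreement with them therefore describes the called genes and is no independent support. Of the 27 called genes, 25 had the untreated direction in all 4 of these pairs, against 22.1% of all genes tested, and Wdr62 had it in 3 and Kif14 in none. Fitted log2 fold changes of Edn1 were −1.66 with propranolol and −0.75 with rapamycin, those of Clic5 1.87 and 2.18 and those of Thbs1 −1.47 and −0.91. Id3 had −1.57 with propranolol and −0.24 with rapamycin. The difference of these values from the untreated cells did not pass for any gene in edgeR (0 genes at an adjusted p under 0.05, 422 with propranolol and 287 with rapamycin at an unadjusted p under 0.05). Pdcd10 had −1.74 and −2.29, and WT replicate 1 held 60.8 CPM of it with propranolol and 52.0 CPM with rapamycin, well above its untreated library.

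Markers of other cell types were low. The mural list summed to 88.7 ± 61.3 TPM in WT and 71.5 ± 32.2 TPM in KO (SD, n = 3), and Acta2 was its most abundant gene, at 52.9 TPM. Its sums were 40.9, 158 and 67.3 TPM in WT replicates 1, 2 and 3 and 50.2, 55.7 and 109 TPM in KO. The high WT replicate 2 is the library with the highest Acta2, Tagln and Myl9, and the part of mural cells in those values was not tested. Other members did not follow Acta2. The median log2 fold change of the 8 tested was 0.19, and Des and Anpep were higher by more than 1.5-fold in all 3 pairs. Anpep had 1.74 (adjusted p = 0.0756) and was called without the library labelled WT replicate 1 (adjusted p = 0.0479). Rgs5, which defines pericytes, was at 0.251 TPM, and Vtn and Higd1b had no counts. The fibroblast list summed to 58.9 ± 16.1 and 56.0 ± 31.4 TPM, with Foxp1 its most abundant gene and Lum, Dpt and Slc6a13 at 0. The microglia and macrophage list had a higher sum in KO, at 44.7, 66.5 and 86.0 TPM against 27.7, 45.6 and 35.8 TPM in WT replicates 1, 2 and 3. That sum came mostly from Ms4a6d, which was called without the library labelled WT replicate 1 (at 1.07, adjusted p = 0.0481), and Cd68, while Csf1r and Ptprc were at 0.101 and 0.0941 TPM and P2ry12 had no counts. The 5 tested members did not share a direction, with 2 higher in all 3 pairs and log2 fold changes from −0.94 to 0.98. Their median was 0.41, or −0.13 without the library labelled WT replicate 1, and −0.04 within pair 3. The astrocyte list had 28.9 ± 13.4 and 33.8 ± 9.67 TPM, mostly from Gja1, with Aqp4 and Gjb6 at 0. Neuron markers summed to 7.46 ± 3.40 and 9.79 ± 1.43 TPM, mostly Tubb3, and oligodendrocyte and choroid plexus markers stayed under 2 TPM in every library. In bulk samples fewer cells of a type and less RNA per cell cannot be told apart.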

How the data were processed

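Per transcript and library, the authors deposited Salmon output (expected counts, TPM, effective lengths). The submitters' processing notes name Salmon 1.5.2 and GRCm39. The expected counts deposited by the authors are not normalized between libraries, and effective lengths, deposited by the authors beside them (in bases, a unit of another kind), entered only as an alternative offset. Libraries were unstranded, from poly(A) RNA, and the authors tested with DESeq2. Counts were summed per gene (GENCODE vM39 named a gene for 99.12% of 140789 transcripts) and rounded, no column of values lacked a sample (0 left unused), and 14838 genes passed edgeR's filter.

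All 16 libraries entered a quasi-likelihood fit in edgeR 4.0.16 (TMM scaling, groups and the replicate number as a block, 8 residual degrees of freedom), and KO minus WT was its contrast. P-values were adjusted after Benjamini and Hochberg. The pairing was set by replicate number, and the labels give only the numbers. Deviations from the group means correlated at 0.619, 0.568 and 0.189 for same-numbered WT and KO libraries, and at 0.0409 or less for others. Deviations from a mean of 3 libraries depend on each other, so these correlations are tied, and that of pair 3 was low. The biological coefficient of variation was 19% with the block and 32.3% without. Pair differences are of log2 CPM with a prior count of 2. In simulated data for this comparison with 14838 genes, edgeR recovered 32, 70, 92 and 100% of genes changed by 1.5, 2, 3 and 4-fold, with 6 false calls. These shares are for the simulated data only. In the measured libraries Xdh and Clic5, with log2 fold changes of 2.27 and 2.09, were called. Ednrb and Apod, with 2.23 and 2.08, were not. The share of changed genes that went uncalled in the measured libraries was not tested.

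The comparison, the block, the members and the gene lists were chosen with earlier results of these data known. Named were genes of the study's text, all called genes, called members of each list with up to 4 more that had 1 direction in all pairs (mean of at least 1 CPM), and the 10 highest and 10 lowest further genes past 1.5-fold in all pairs. A few results are not reported here. Other list members were chosen with their values known. Genes sharing over 10% of their exonic bases with another gene are marked where called, and for some others, since reads of overlapping genes cannot be told apart. Alternatives were DESeq2 1.42.0, limma-voom (limma 3.58.1), other scaling factors, filters, libraries and no block.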

Additional observations from a re-analysis of the deposited data

Results flagged for a closer look

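The short Pdcd10 transcript that runs into the third intron drew attention as a signal outside the gene-level comparison, because it stood above the level of the controls. It took 8.16% ± 1.15 of the Pdcd10 counts in the untreated KO libraries (SD, n = 3), against 1.28% ± 1.82 in WT, and it was listed at 0 in the 4 WT libraries treated with a drug. A few of the named genes differed in direction between untreated and treated cells, and this was looked up because every untreated pair moved one way and both treated pairs the other. With propranolol these were Heg1, Mylip and Hspd1, whose KO against WT difference changed by −0.34, −0.86 and 0.12 on the log2 scale relative to untreated cells. With rapamycin they were Sox11, with a change of −1.61, and Xist, with a change of −0.77. The adjusted p of each of these 5 interactions was 1 in edgeR.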

How the results depend on the processing

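The count of 27 called genes fell to 1 without the replicate block, to 1 on the untreated libraries alone with the block (Ankrd1, none of the 27) and to 0 without it. It was 396 with DESeq2 and the block, 64 with DESeq2 without it, 56 with limma-voom, 118 with no filter on low counts and 20 with effective lengths as an offset, where 10 instead of 16 genes were called higher and 12 of the 27 were lost. Leaving out 1 library or 1 pair gave between 0 and 66 calls, with 66 without the library labelled WT replicate 1, 9 and 2 without WT replicates 2 and 3, 2 without KO replicate 1, 0 without KO replicates 2 or 3, and 11, 0 and 0 without pairs 1, 2 and 3. Settings chosen after the data were seen gave 523 calls (DESeq2, block, without the library labelled WT replicate 1) and 0 (no block, without it). In each, the cause was not tested. Pdcd10 had a log2 fold change of −1.52 and passed in DESeq2 with the block (−1.52) and without it (−1.56), in DESeq2 without the library labelled WT replicate 1 (−2.01), and in edgeR without that library (−2.02) or its pair (−1.89), with a range from −2.02 to −1.07 over the fits that left out a library or a pair. With effective lengths as an offset it was −0.82 (adjusted p = 0.377). The 485 genes past 1.5-fold in all pairs became 1014, 1339 and 734 when pairs 1, 2 and 3 were left out, since fewer pairs then had to pass. Kdr ranged from −0.12 without KO replicate 1 to 0.57 without the library labelled WT replicate 1 and was the one named gene whose direction turned in a setting run. Scaling by RLE or the 1 CPM filter changed the side of the threshold of no named gene. With 3 pairs, an exact permutation test of a single gene cannot give a two-sided p under 0.25.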
